A study of Saccharomyces cerevisiae with 18 samples.

Results

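Strains of Saccharomyces cerevisiae that both lack HAC1 were compared, one secreting α-amylase (dA, 3 arrays) and one secreting human insulin precursor (dI, 3 arrays). The members of the comparison were chosen by their array titles, and they are 6 of the 18 arrays of the series. All tested genes entered it, 5449 in number. Each array holds RNA of 1 bioreactor culture on glucose, sampled in mid-exponential phase. Both strains derive from the MATa strain CEN-PK 113-5D with a ura3 mutation, carry kanMX in place of HAC1, and hold the same multicopy URA3 vector with a constitutive glycolytic promoter in front of the secreted protein. Both proteins were led into the secretory pathway by the same Yap3 pre-leader and TA57 pro-leader. The α-amylase comes from Saccharomyces kluyveri and is larger than the insulin precursor. As a model each group is a single transformed strain, so that a difference between strains and a difference between secreted proteins cannot be told apart. The same 2 proteins in wild type cells with HAC1 (WA and WI, 3 arrays each) served as the comparison where the difference between backgrounds was tested. The deletion strain with the empty vector (dN) and the wild type with it (WN) also entered the shared estimate of the spread.

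Proteins that enter the secretory pathway fold in the endoplasmic reticulum (ER), where chaperones such as Kar2 bind them and Pdi1 and its relatives form their disulfide bonds. Unfolded protein in the ER activates the kinase and nuclease Ire1, which splices the HAC1 message, and the Hac1 factor then raises transcription of chaperone, disulfide and degradation genes. Without HAC1 this route, the unfolded protein response, is closed. Other programmes of the cell remain, among them the environmental stress response through Msn2 and Msn4, the nutrient control of ribosome synthesis, and the control of nitrogen, phosphate and carbon genes.

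The labels were checked first. HAC1 was below the array background, a log2 signal of 4.46 to 4.49 in dA and 4.55 to 4.59 in dI, in all 6 arrays, with a log2 signal of 1.60, 1.75 and 1.08 in dA and 1.27, 1.09 and 1.13 in dI. The α-factor receptor gene STE2, which marks MATa cells, gave 9.91, 9.78 and 9.69 in dA and 9.57, 9.84 and 9.51 in dI. MF(ALPHA)2, an α-factor gene of the opposite mating type, stayed at 1.97, 1.89 and 2.0 in dA and 2.02, 2.30 and 1.92 in dI, under the background. MF(ALPHA)1 and SAG1 of that mating type were above it in all 6 arrays, at 5.40 to 5.46 and 5.54 to 5.77 in dA and 5.69 to 5.92 and 5.62 to 5.76 in dI. STE3, also of that mating type, was above it in all 3 dI arrays and in no dA array. The arrays of dA differed from each other by an SD over genes of 0.121 to 0.178 on the log2 scale, and those of dI by 0.146 to 0.205. Between the strains the SD was 0.195 to 0.305, and the lowest of these values, between dA replicate 2 and dI replicate 2, lay below the SD of 0.205 between dI replicates 2 and 3.

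Few genes separated the strains by a large amount, and most of those lay lower in dA. The stress hydrophilin GRE1, the proline permease PUT4, the vector marker URA3 and the mating gene FUS1 were at least 2-fold lower in dA, the hydrophilin SIP18 was at least 1.6-fold lower, and no gene was called at least 2-fold higher. In limma, fitted to all 18 arrays with 1 mean per strain, at a Benjamini-Hochberg adjusted p under 0.05, 15 genes were higher and 39 lower in dA than in dI, 54 in all or 0.991% of the genes tested (0.275% higher and 0.716% lower). At an unadjusted p under 0.05 there were 748. The count rests on the spread of strains outside the comparison. The residual SD of the dN arrays was 0.155, 0.25 and 0.361, against 0.0768 to 0.107 in dA and 0.0784 to 0.114 in dI. A fit of the dA and dI arrays alone called 178 genes higher (3.27%) and 295 lower (5.41%), 8.68% of all, and all 54 genes were among them. Without dN replicate 3 the shared fit called 128 genes higher (2.35%) and 247 lower (4.53%), 6.88% of all. With the replicate number as a block the fit of 17 arrays called 15 higher and 40 lower, of which 46 are among the 54, and the block fit of dA and dI alone called 269 higher and 398 lower. DAL3, DSF1, ECM22, EPL1, HXT2, ROG3, STE24 and YOR186W lost the call in the block fit of 17 arrays, with an adjusted p of 0.0517 to 0.0678. All 3 arrays of dA lay above all 3 of dI for 852 genes (15.6%) and below them for 895 genes (16.4%), so that the strains did not overlap for 32.1% of all genes. These shares are the background for the counts of arrays apart in the gene lists further on. For list counts in the fit of dA and dI alone the background is 3.27% higher and 5.41% lower. In the rest of the text a gene is said to have passed when it did so in the fit of 18 arrays, and the fit of dA and dI alone is named wherever it is used.

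**Figure D1:**
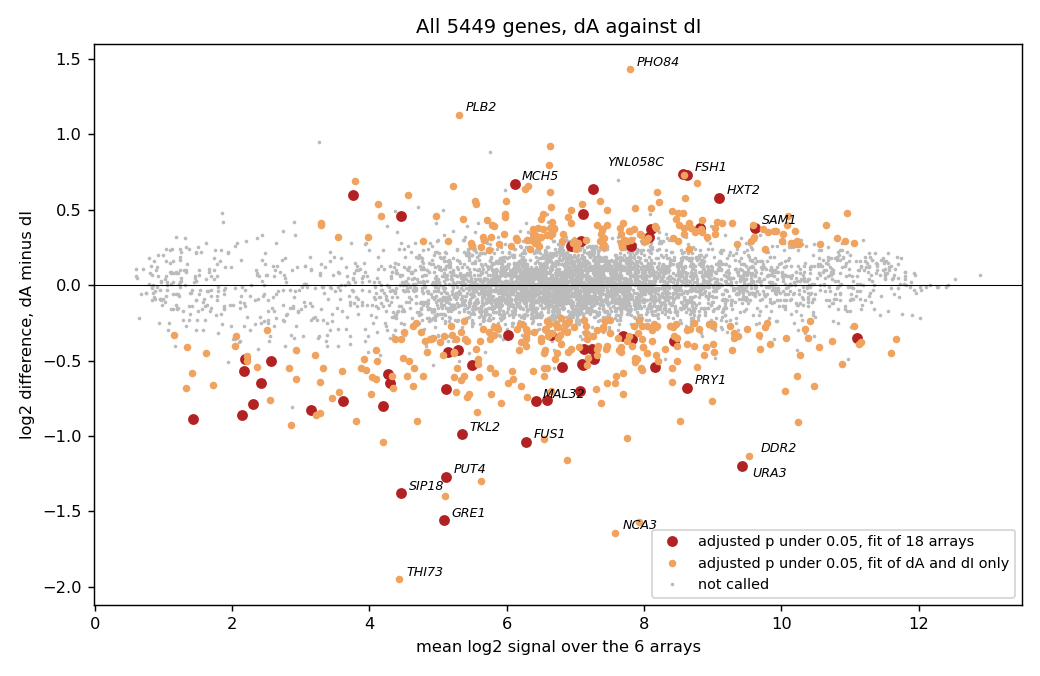
The log2 difference between dA and dI (vertical axis, dA minus dI) against the mean log2 signal over the 6 arrays (horizontal axis), 1 point per gene. Red points are the 54 genes called in the fit of 18 arrays, orange points those called in the fit of dA and dI alone, and grey points the rest; the lowest red points are GRE1 at -1.56 and SIP18 at -1.38.

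Part of the 54 calls did not hold when 1 array was left out. Fewer arrays also weaken the test for every gene, so a lost call does not show that it rested on that array. Without dA replicate 1, 2 or 3 the number of genes called was 21, 20 and 24. Without dI replicate 1, 2 or 3 it was 23, 58 and 17. The genes called with any 1 of the 6 arrays left out were AGA1, APS2, DAL80, ICP55, LEU1, MCH5, MOG1, PUT4, SIP18, SRT1, TKL2, URA3, YHR054C, YIL046W-A and YNL058C, 15 of the 54. The other 39 lost the call at least once, GRE1 and FUS1 among them.

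Of the genes that passed, GRE1 and SIP18 had the lowest differences. GRE1, which encodes a small hydrophilic protein induced by osmotic stress, gave a log2 signal of 4.18, 4.32 and 4.42 in dA and 5.83, 5.71 and 6.05 in dI. SIP18, a phospholipid-binding hydrophilin that osmotic stress also induces, gave 3.78, 3.75 and 3.80 in dA and 5.19, 4.90 and 5.38 in dI. Neither gene was above the array background in any dA array, whereas all dI arrays were above it. GRE1 was therefore at least 2.61-fold lower in dA (fitted difference -1.56 ± 0.27 on the log2 scale, SE; adjusted p = 0.00976). SIP18 was at least 1.6-fold lower (-1.38 ± 0.20, adjusted p = 0.00289). TKL2, a minor transketolase of the pentose phosphate pathway that stress induces, was at 4.77, 4.91 and 4.88 in dA and 5.75, 5.83 and 5.94 in dI (-0.99 ± 0.14, adjusted p = 0.0027). Its values did not overlap either, and both strains stood above the background.

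GRE1, SIP18 and TKL2 belong to the list of Msn2 and Msn4 targets, genes that the environmental stress response switches on. Of 33 measured targets these 3 passed lower and none higher. In the fit of dA and dI alone 14 passed lower and 1 higher, and in 24 of the 33 all dA arrays lay below all dI arrays, against 16.4% of all genes. The median log2 difference of the list was -0.25, against 0.00 over all genes. Both strains stood above the empty vector strain dN, with a median difference from it of 0.79 in dA and 1.05 in dI. The mean log2 signal of the list in dN spread widely, at 7.06, 7.34 and 6.29. NQM1, a relative of transaldolase, had the lowest difference of the list without passing in the shared fit, at 6.80, 7.39 and 7.23 in dA and 8.64, 8.32 and 9.17 in dI. DDR2, a stress gene induced by DNA damage, gave 8.98, 8.98 and 8.95 in dA and 10.07, 9.98 and 10.25 in dI, and its adjusted p was 0.0582 in the shared fit and 0.000158 in the fit of both strains alone, and pairs of adjusted p are given in this order from here on. For NQM1 the pair was 0.305 and 0.00368. CTT1, the cytosolic catalase, gave 5.52, 5.55 and 5.53 in dA against 6.32, 6.28 and 6.33 in dI (adjusted p 0.131 and 0.000227). The heat shock gene HSP12 gave 11.39, 11.36 and 11.35 in dA and 11.81, 11.66 and 11.97 in dI (adjusted p 0.296 and 0.0147). The 3 arrays of dA stood close together for DDR2, CTT1 and HSP12, whereas those of NQM1 ran from 6.80 to 7.39. For NQM1, DDR2, CTT1 and HSP12 alike, every dA array lay below every dI array. The exception in the list was HXK1, a hexokinase of poor carbon sources, at 8.73 in every dA array and 8.27, 8.52 and 7.96 in dI (adjusted p 0.321 and 0.0458). The count of targets that passed lower in the fit of both strains alone was 8 to 14 when 1 array was left out, with 8 without dI replicate 1, dA replicate 2 or dA replicate 3 and 9 without dI replicate 3, and the median stayed between -0.29 and -0.23. Of the trehalose and glycogen genes, several of which Msn2 and Msn4 control, none of 20 passed in the shared fit. In the fit of both strains alone 5 passed lower and 2 higher, against 5.41% and 3.27% of all genes. All dA arrays lay below all dI arrays for 7 and above them for 2, against 16.4% and 15.6% of all genes. The median was -0.05 (0.01 without dI replicate 3). The 5 became 1 without dA replicate 1 and 0 without dI replicate 1, dI replicate 3, dA replicate 2 or dA replicate 3. GPH1, the glycogen phosphorylase, was at 7.33, 7.36 and 7.43 in dA and 6.78, 6.85 and 6.87 in dI (adjusted p 0.084 and 0.00155). It stood higher in dA, opposite to the stress genes named above.

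**Figure D2:**
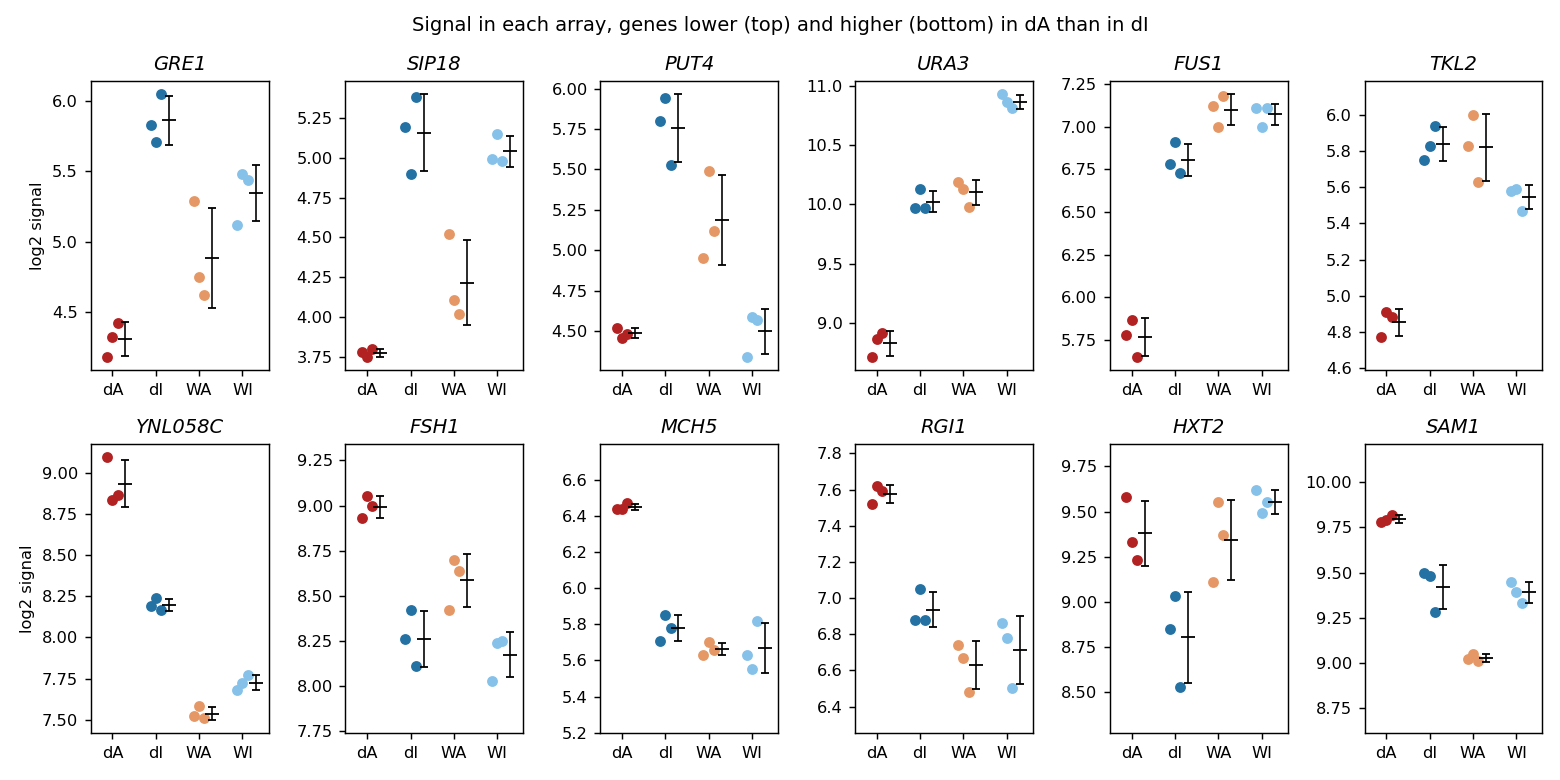
The log2 signal of 12 genes (vertical axis, a scale of its own in each panel) in each of the 3 arrays of dA, dI, WA and WI (horizontal axis), with the mean and SD of each strain as a bar. In the upper row dA lies below dI in every array, as for PUT4 with 4.46 to 4.52 against 5.53 to 5.94, and in the lower row it lies above, as for MCH5 with 6.44 to 6.47 against 5.71 to 5.85.

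URA3, the marker of the vector and a gene of uracil synthesis, had the smallest adjusted p of all genes. Its log2 signal was 8.71, 8.86 and 8.91 in dA and 9.97, 10.13 and 9.97 in dI (2.29-fold lower in dA, adjusted p = 3.9e-06). The signal was also lower in WA than in WI, at 10.19, 10.13 and 9.98 against 10.93, 10.86 and 10.81 (adjusted p = 0.000292). The difference between backgrounds did not pass for this gene (adjusted p = 0.106). Strain dN with the empty vector gave 12.30, 12.49 and 12.20, above both secreting strains. The probe set may also read the chromosomal ura3 gene, and the number of vector copies was not measured on these arrays, so that its part in the result was not tested.

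Single genes for the uptake and use of nitrogen were lower in dA. PUT4, the high-affinity proline permease, gave 4.52, 4.46 and 4.48 in dA and 5.80, 5.94 and 5.53 in dI (2.42-fold lower, adjusted p = 0.00106). Only 1 array of dA was above the background, whereas all 3 of dI were. DAL80, a GATA factor that represses nitrogen catabolic genes and is itself under nitrogen control, gave 2.74, 2.68 and 2.77 in dA and 3.52, 3.71 and 3.45 in dI (adjusted p = 0.00718). All 6 of these values were below the background, so no fold is given. DAL3, an enzyme of allantoin breakdown, gave 3.89, 3.97 and 4.08 in dA and 4.51, 4.58 and 4.60 in dI, with 1 array of dI and none of dA above the background (at least 1.06-fold lower, adjusted p = 0.0338). DAL80 and DAL3 were the genes that passed among 23 of nitrogen use. In the fit of dA and dI alone 7 passed lower and 1 higher, 12 of the 23 had all dA arrays below all dI arrays, and the median was -0.16 (-0.09 with quantile normalization). The gene that passed higher there was GDH1, a glutamate dehydrogenase of ammonium assimilation. Leaving out 1 array in that fit gave 3 lower calls without dI replicate 1, dA replicate 2 or dA replicate 3, 4 without dI replicate 3 or dA replicate 1, and 7 without dI replicate 2. CAR1, the arginase, was at 9.92, 10.12 and 10.08 in dA and 10.52, 10.47 and 10.50 in dI (adjusted p 0.351 and 0.00618). MEP1, an ammonium permease, was at 5.49, 5.16 and 5.38 in dA and 5.67, 5.86 and 5.76 in dI (adjusted p 0.0656 and 0.0307), while its relative MEP3 was at 6.48, 6.33 and 6.33 against 5.90, 6.23 and 5.93 (adjusted p 0.348 and 0.0526). The permeases of the same family thus stood on opposite sides, without a call in the shared fit. Of the other permeases, PUT4 was the single gene that passed among 19 of amino acid and peptide uptake, whose median was 0.01 and turned to -0.02 without dI replicate 1 or 3, to -0.08 without dA replicate 1 and to -0.03 with array quality weights.

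Some genes of mating and of the start of the cell cycle passed as well. In a whole culture, fewer cells in a state and less RNA per cell cannot be told apart. FUS1, a membrane protein needed for the fusion of mating cells, gave 5.78, 5.87 and 5.65 in dA and 6.78, 6.91 and 6.73 in dI (2.06-fold lower, adjusted p = 0.0166). AGA1, the anchor of the a-agglutinin, gave 5.32, 5.24 and 5.14 in dA and 5.72, 5.81 and 5.76 in dI (1.44-fold lower, adjusted p = 0.00275). The pheromone-regulated membrane gene PRM1 passed as well, at 3.32, 3.45 and 2.90 in dA and 3.80, 3.87 and 4.32 in dI, with all 6 values below the background (adjusted p = 0.0309). Of 15 genes of the pheromone response 3 passed lower and none higher, and the median was -0.08. The 3 became 2 without dI replicate 2 or dA replicate 2 and 1 without any other of the 6 arrays. In the fit of dA and dI alone 4 passed lower and 1 higher (2 lower without dI replicate 3, dA replicate 1 or dA replicate 3). The gene that passed higher was FAR1, which arrests the cell cycle in response to pheromone, at 6.18, 6.17 and 6.25 in dA and 5.67, 5.89 and 5.69 in dI (adjusted p 0.639 and 0.00973). The members of the list ran between -1.04 and 0.45. Of the mating type genes, MFA1, which encodes a-factor, was at 8.61, 8.70 and 8.64 in dA and 9.10, 9.08 and 9.15 in dI (adjusted p 0.0575 and 0.00255). The second a-factor gene MFA2 was at 9.75, 9.70 and 9.67 against 9.40, 9.54 and 9.32 (adjusted p 0.44 and 0.0403). Both genes code for the same pheromone, and their differences had opposite signs. None of the genes specific to a or α cells passed in the shared fit. STE3, the a-factor receptor of α cells, was at 4.41, 4.16 and 4.32 in dA, under the background in each array, and at 5.04, 4.90 and 4.97 in dI (adjusted p 0.2 and 0.00178).

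CLN1, a G1 cyclin, gave 6.45, 6.52 and 6.65 in dA and 7.01, 7.10 and 7.13 in dI (1.46-fold lower, adjusted p = 0.0101). PCL2, a G1 cyclin that acts with the kinase Pho85, gave 4.74, 4.85 and 4.72 in dA and 5.38, 5.52 and 5.49 in dI (1.62-fold lower, adjusted p = 0.0224). Its relative PCL1 was at 6.89, 6.98 and 6.97 in dA and 7.66, 7.65 and 7.63 in dI (adjusted p 0.122 and 0.000389). The arrays overlapped for CLN2, a G1 cyclin related to CLN1, at 7.46, 7.71 and 7.54 in dA and 7.69, 7.76 and 7.75 in dI (adjusted p 0.378 and 0.21). Of 15 genes of the G1 list 2 passed lower and none higher, and the median was -0.02. The 2 became 1 without dI replicate 1, dI replicate 2 or dA replicate 3 and 0 without dI replicate 3, dA replicate 1 or dA replicate 2, while in the fit of dA and dI alone 3 passed lower with any of the 6 arrays left out. SWE1, the kinase that holds cells before mitosis, gave 5.83, 5.74 and 5.98 in dA and 6.18, 6.15 and 6.23 in dI (1.26-fold lower, adjusted p = 0.0367). The genes expressed from mitosis to G1, many of which help the daughter cell to separate, stood the other way. None of the 11 passed in the shared fit, 6 passed higher in the fit of dA and dI alone and none lower, and in 9 of the 11 all dA arrays lay above all dI arrays, against 15.6% of all genes. Their median was 0.39. DSE4, a glucanase that degrades the septum from the daughter side, was at 7.37, 6.93 and 6.95 in dA and 6.07, 6.44 and 5.98 in dI (adjusted p 0.167 and 0.00853). EGT2, a cell wall protein of the same step, was at 9.17, 8.86 and 8.80 in dA and 8.11, 8.61 and 7.91 in dI (adjusted p 0.306 and 0.0347). In both genes dI replicate 2 stood nearest to dA. The mean log2 signal of the 11 genes was 7.58, 7.50 and 7.48 in dA and 7.01, 7.31 and 6.98 in dI. The count of 6 depended on the arrays: it was 9 without dI replicate 2, 1 without dI replicate 1, dA replicate 1 or dA replicate 3, and 2 without dI replicate 3 or dA replicate 2, while the median stayed between 0.31 and 0.50.

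**Figure D3:**
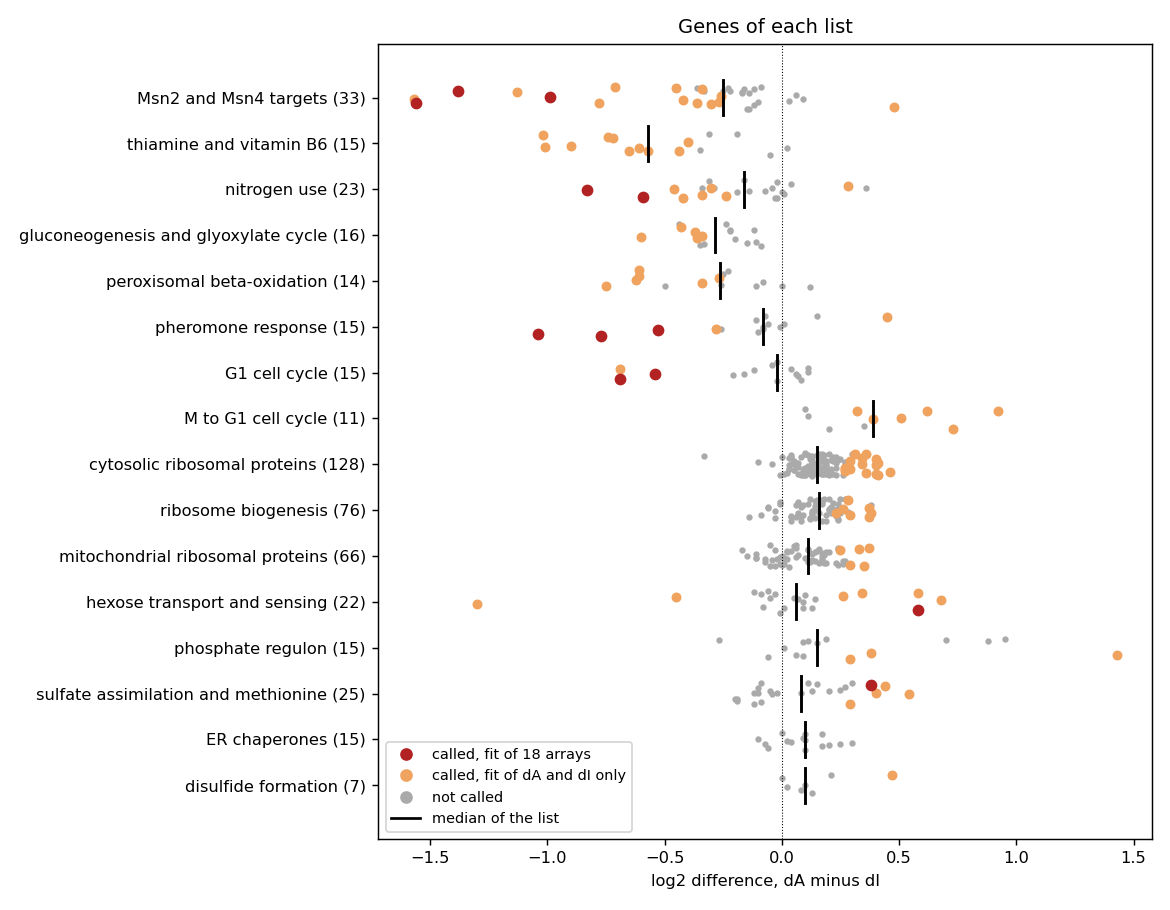
The log2 difference between dA and dI (horizontal axis, dA minus dI) for the measured genes of 16 lists, 1 row per list with its number of genes, the median of the list as a black line and the vertical scatter within a row without meaning. Red points passed in the fit of 18 arrays and orange points in the fit of dA and dI alone; the medians run between -0.57 for thiamine and vitamin B6 and 0.39 for the M to G1 genes.

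The genes for making and taking up thiamine, the cofactor of pyruvate decarboxylase and transketolase, were lower in dA in the fit of both strains alone. None of the 15 genes of thiamine and vitamin B6 passed in the shared fit, 10 passed lower in the fit of dA and dI alone, and 11 had all dA arrays below all dI arrays. The median was -0.57, the lowest of the lists described. PET18, a gene of the list with no settled enzymatic role, gave 5.96, 6.01 and 6.13 in dA and 7.06, 7.03 and 7.06 in dI (adjusted p 0.0664 and 0.000119). THI20, a kinase of thiamine synthesis, gave 7.10, 7.40 and 7.23 in dA and 8.27, 8.16 and 8.34 in dI (adjusted p 0.13 and 0.000407). THI7, the thiamine transporter of the plasma membrane, gave 8.26, 8.06 and 7.89 in dA and 9.04, 8.99 and 8.87 in dI (adjusted p 0.151 and 0.0013). In none of the 3 genes did an array of dA reach the lowest array of dI. THI13 has near-identical copies in the genome, and its signal of 5.77, 6.01 and 5.98 in dA and 6.63, 6.58 and 6.77 in dI may stem from several of them. The arrays of the strains overlapped for THI3, a regulator of the pathway, THI80, the pyrophosphokinase that makes the cofactor, and SNZ1 and SNO1, which act in vitamin B6 synthesis. With 1 array left out, 9 to 11 of the 15 passed in the fit of both strains alone, and the median stayed between -0.60 and -0.52. THI73, named in yeast as a carboxylic acid permease under thiamine control and no member of the list, had the lowest difference of all genes that passed in the fit of both strains alone, with 3.46, 3.58 and 3.33 in dA, under the background, and 5.54, 5.49 and 5.18 in dI (adjusted p 0.0544 and 7.5e-05). It was chosen after its values were seen. PDC5, a pyruvate decarboxylase gene that thiamine represses, did pass, at 6.84, 6.93 and 6.77 in dA and 7.42, 7.34 and 7.36 in dI (1.44-fold lower, adjusted p = 0.0144).

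None of the genes of β-oxidation and gluconeogenesis passed in the shared fit, and both lists had negative medians. Of 14 genes of peroxisomal β-oxidation 6 passed lower in the fit of dA and dI alone, 11 had all dA arrays below all dI arrays, and the median was -0.27. IDP3, the isocitrate dehydrogenase of the peroxisome, gave 5.33, 5.29 and 5.27 in dA and 6.00, 5.76 and 5.97 in dI (adjusted p 0.134 and 0.00228). SPS19, a dienoyl-CoA reductase, gave 5.61, 5.85 and 5.90 in dA and 6.42, 6.43 and 6.36 in dI (adjusted p 0.372 and 0.00317). Of 16 genes of gluconeogenesis and the glyoxylate cycle 5 passed lower in that fit, 11 had all dA arrays below all dI arrays, and the median was -0.28. MDH2, the cytosolic malate dehydrogenase, gave 9.13, 9.09 and 8.99 in dA and 9.51, 9.56 and 9.44 in dI (adjusted p 0.0575 and 0.007). At the background in all 6 arrays were 3 members of the β-oxidation list and 4 of the gluconeogenesis list, FBP1, the fructose bisphosphatase, among the 4. Leaving out 1 array gave 3 to 8 calls for β-oxidation (3 without dI replicate 1, dI replicate 3 or dA replicate 2) and 1 to 7 for gluconeogenesis (1 without dI replicate 1 or dI replicate 3, and 2 without dA replicate 1, 2 or 3). Of the sugar transporters, HXT2, a high-affinity hexose transporter, was higher in dA, at 9.58, 9.33 and 9.23 against 8.85, 9.03 and 8.53 in dI (1.49-fold, adjusted p = 0.0361). HXT7 was at 9.30, 9.08 and 8.96 in dA and 8.41, 8.57 and 8.31 in dI (adjusted p 0.179 and 0.00629), and since HXT6 is nearly identical its signal may hold both. HXT4 was at 8.97, 8.91 and 8.77 against 8.30, 8.48 and 8.14 (adjusted p 0.277 and 0.00924). HXT5, a transporter expressed in slow growth, stood the other way, at 4.88, 4.93 and 5.10 in dA and 6.16, 5.98 and 6.67 in dI (adjusted p 0.408 and 0.00213). Of 22 genes of hexose transport and sensing 1 passed higher in the shared fit, and 5 higher and 2 lower in the fit of both strains alone. The 5 became 2 without dI replicate 1 or dA replicate 2 and 3 without dI replicate 3, dA replicate 1 or dA replicate 3.

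The genes of the translation machinery mostly had higher values in dA, by amounts that passed for none of the genes listed in the shared fit. Of 128 genes for cytosolic ribosomal proteins, 88 had all dA arrays above all dI arrays and 1, RPL15B, had them below, against 15.6% and 16.4% of all genes. Their median was 0.15, and 17 passed higher and none lower in the fit of dA and dI alone. In the shared fit without dN replicate 3 none passed higher and RPL15B passed lower (adjusted p = 0.0314). That fit called 1 gene of ribosome biogenesis and 4 mitochondrial ribosomal protein genes higher. Of the lists above, it called 10 Msn2 and Msn4 targets and 7 thiamine and vitamin B6 genes lower, and 5 M to G1 genes higher. Over all genes it called 4.53% lower and 2.35% higher. RPS28B was at 10.37, 10.30 and 10.30 in dA and 9.92, 9.96 and 9.71 in dI (adjusted p 0.241 and 0.00997). RPS22B was at 9.73, 9.78 and 9.85 in dA and 9.50, 9.41 and 9.25 in dI (adjusted p 0.192 and 0.0194). Most of these genes come in pairs with near-identical sequence, so a probe set may read both copies. The mean log2 signal of the list was 10.79, 10.83 and 10.83 in dA and 10.70, 10.67 and 10.61 in dI. Of 76 ribosome biogenesis genes, 36 had all dA arrays above all dI arrays and 1 below, 7 passed higher in the fit of both strains alone, and the median was 0.16. NOP1, the methylase of the small nucleolar particles, was at 9.89, 9.94 and 9.95 in dA and 9.56, 9.72 and 9.37 in dI (adjusted p 0.484 and 0.0361). Of 66 genes for mitochondrial ribosomal proteins 30 had all dA arrays above and 3 below, 5 passed higher in the fit of both strains alone, and the median was 0.11. The calls in the fit of both strains alone moved with the arrays. For cytosolic ribosomal proteins they were 30 without dI replicate 2, 4 without dI replicate 1 or dA replicate 1, 3 without dI replicate 3 or dA replicate 3, and 2 without dA replicate 2. For ribosome biogenesis they were 18 without dI replicate 2, 2 without dA replicate 1 and 1 without any other array, and for mitochondrial ribosomal proteins they were 8 without dI replicate 2 and 0 without any other array. The medians held between 0.12 and 0.17 and between 0.13 and 0.19.

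**Figure D4:**
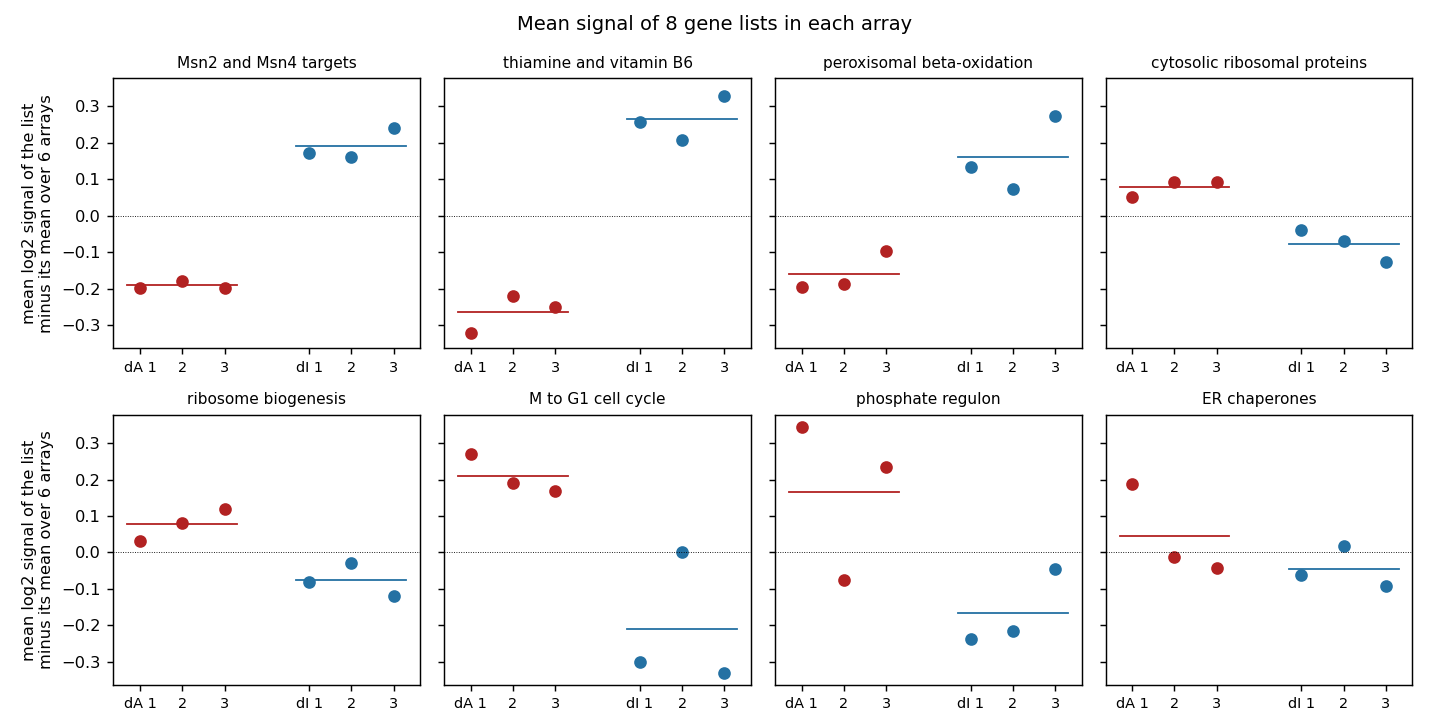
The mean log2 signal of 8 gene lists in each array of dA and dI (horizontal axis), minus the mean of that list over the 6 arrays (vertical axis, 1 scale for all panels); lines are the means of 3 arrays. In the upper row the 3 arrays of dA stand apart from the 3 of dI, as for the Msn2 and Msn4 targets with 7.71, 7.73 and 7.71 in dA against 8.08, 8.07 and 8.15 in dI before centring, and for the ER chaperones the strains overlap.

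Of the ER genes that the unfolded protein response controls, none passed between the strains in the shared fit. KAR2 was at 10.96, 10.71 and 10.74 in dA and 10.52, 10.67 and 10.47 in dI (0.25 ± 0.08, adjusted p 0.138 and 0.103). PDI1, the main disulfide isomerase, was at 11.22, 11.20 and 11.16 in dA and 11.19, 11.20 and 11.19 in dI (adjusted p 0.997 and 0.994). The values of PDI1 overlapped, while those of KAR2 were higher in every dA array than in any dI array without passing either test. EUG1, a relative of PDI1, was at 6.83, 6.76 and 6.71 in dA and 6.19, 6.50 and 6.21 in dI (0.47 ± 0.12, adjusted p 0.0656 and 0.0188), and it was the single gene of 7 in disulfide formation to pass in the fit of both strains alone, where none passed without dI replicate 1, dI replicate 3, dA replicate 1 or dA replicate 2. MPD1, MPD2 and ERO1, of which the last is the oxidase that charges Pdi1, differed by 0.08, 0.02 and 0.21 with adjusted p of 0.784, 0.939 and 0.494. KEG1, MCD4 and ERJ5, a glucan synthesis gene, a gene of GPI anchors and an ER co-chaperone, differed by 0.05, 0.06 and 0.10 with adjusted p of 0.879, 0.832 and 0.513. None of 15 ER chaperones, 19 genes of ER-associated degradation or 26 of N-glycosylation passed in the shared fit, and the medians were 0.10, 0.02 and 0.11. Without dN replicate 3 the shared fit called 1 gene higher in each of these lists and in disulfide formation, and none lower. With 1 array left out the median ran between 0.00 (without dA replicate 1) and 0.15 (without dA replicate 3) for chaperones, between 0.01 (without dA replicate 1) and 0.09 (without dA replicate 3) for degradation, and between 0.04 (without dI replicate 3 or dA replicate 1) and 0.15 (without dI replicate 2) for glycosylation. ALG8, a glucosyltransferase of the glycan precursor, was the single gene of these lists to pass in the fit of both strains alone, at 7.67, 7.49 and 7.38 in dA and 7.06, 7.29 and 7.0 in dI (adjusted p 0.0822 and 0.0412). Without dI replicate 2 that fit called 2 genes each of the chaperone, degradation and glycosylation lists, and without any other array it called none. Of 11 catalases, dismutases and peroxiredoxins none passed in the shared fit, and CTT1 and TSA2, a peroxiredoxin, passed lower in the fit of both strains alone. TSA2 was at 3.81, 4.20 and 3.99 in dA, under the background, and 4.66, 4.64 and 4.75 in dI (at least 1.15-fold lower, adjusted p 0.144 and 0.00503). The superoxide dismutase SOD2 was at 9.67, 9.71 and 9.76 in dA and 9.91, 9.89 and 10.01 in dI (adjusted p 0.0862 and 0.0621). The median of this list was -0.11.

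The 15 genes that passed higher in dA were of mixed function. YNL058C, a gene of unknown function, gave 9.10, 8.84 and 8.87 in dA and 8.19, 8.24 and 8.17 in dI (1.67-fold higher, adjusted p = 0.00411). FSH1, a putative serine hydrolase, gave 8.93, 9.05 and 9.0 in dA and 8.26, 8.42 and 8.11 in dI (1.66-fold higher, adjusted p = 0.0187). MCH5, the riboflavin transporter, gave 6.44, 6.44 and 6.47 in dA and 5.71, 5.85 and 5.78 in dI (1.59-fold higher, adjusted p = 0.00718). None of these overlapped, and the dA arrays of MCH5 were nearly alike. RGI1, a gene of energy metabolism, gave 7.52, 7.62 and 7.59 in dA and 6.88, 7.05 and 6.88 in dI (1.55-fold higher, adjusted p = 0.0161). SAM1, which makes S-adenosylmethionine, gave 9.78, 9.79 and 9.82 in dA and 9.50, 9.48 and 9.28 in dI (1.3-fold higher, adjusted p = 0.0101), and its relative SAM2 has a similar sequence. SAM1 was the single gene that passed of 25 in sulfate assimilation and methionine synthesis, with 5 in the fit of both strains alone, none of them lower (1 to 5 with 1 array left out, and 1 without dA replicate 2). Of the further genes 3 act in mitochondria, namely ICP55, a peptidase of the matrix (1.39-fold, adjusted p = 0.00718), SAM50, the core of the sorting machinery of the outer membrane (1.23-fold, adjusted p = 0.0286), and SLM5, an asparaginyl-tRNA synthetase (1.2-fold, adjusted p = 0.0477). SLM5 was the weakest call and missed the threshold with quantile normalization (0.0592), median centring (0.0633), an intensity trend (0.0526) and all probe sets (0.144). STE24, the protease that matures a-factor, was 1.3-fold higher (adjusted p = 0.0361). PAU4, of a large family with near-identical members, gave 4.79, 4.71 and 4.55 in dA and 4.23, 4.31 and 4.15 in dI, where no array was above the background (at least 1.08-fold higher, adjusted p = 0.0236). AIM9, SKG1 and YNL040W were 1.29, 1.24 and 1.2-fold higher, and DSF1 lay below the background in all 6 arrays.

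A phosphate gene had the highest difference of the genes that passed in the fit of both strains alone, with a wide spread. PHO84, the high-affinity phosphate transporter, was at 8.91, 8.08 and 8.52 in dA and 6.89, 6.93 and 7.42 in dI (1.43, adjusted p 0.458 and 0.0056). PHO5, the secreted acid phosphatase, was at 6.70, 5.53 and 6.36 in dA and 5.14, 5.35 and 5.47 in dI (adjusted p 0.415 and 0.064). In both genes dA replicate 2 was the lowest of its strain. Of 15 genes of the phosphate regulon none passed in the shared fit and 3 passed higher in the other, PHO84 and the polyphosphate synthesis genes VTC3 and VTC4, and the median was 0.15. With 1 array left out it was 1 to 5 genes, with 1 without dI replicate 1, dA replicate 1 or dA replicate 3 and 5 without dA replicate 2.

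The remaining genes that passed lower in dA included 3 for synthesis of amino acids and nucleotides, while the lists of such genes did not share 1 direction. LEU1, of leucine synthesis, gave 6.89, 7.07 and 7.12 in dA and 7.48, 7.40 and 7.68 in dI (1.41-fold lower, adjusted p = 0.00718). LYS9, of lysine synthesis, gave 8.18, 8.29 and 8.26 in dA and 8.59, 8.60 and 8.67 in dI (1.29-fold lower, adjusted p = 0.0161). IMD2, an IMP dehydrogenase with close relatives in the genome, gave 6.89, 6.81 and 6.82 in dA and 7.38, 7.36 and 7.35 in dI (1.44-fold lower, adjusted p = 0.0144). The arrays of the strains did not overlap in any of the 3. Of 8 lysine synthesis genes 1 passed, the median was -0.20, and all dA arrays lay below all dI arrays for 4 and above for 0. Of 37 genes of other amino acid synthesis 1 passed, the median was 0.03, and 7 lay below and 12 above. Of 11 purine synthesis genes none passed, the median was 0.18, and 0 lay below and 8 above, against 16.4% and 15.6% of all genes. The maltase gene MAL32, whose relative MAL12 is nearly identical, gave 5.97, 6.09 and 6.07 in dA and 6.82, 6.98 and 6.62 in dI (1.7-fold lower, adjusted p = 0.0361). PRY1, a secreted sterol-binding protein, gave 8.32, 8.26 and 8.27 in dA and 8.92, 9.05 and 8.93 in dI (1.6-fold lower, adjusted p = 0.0187). ROX1, the repressor of hypoxic genes, gave 6.79, 6.94 and 7.02 in dA and 7.16, 7.39 and 7.45 in dI (1.34-fold lower, adjusted p = 0.0309). Among 21 hypoxic genes, ROX1 included, none passed higher in the shared fit. In the fit of both strains alone 3 passed higher, against 3.27% of all genes, and 1 lower, ROX1 itself. All dA arrays lay above all dI arrays for 6 of the 21 and below them for 2, and the median was 0.07. Among the 3 was the coproporphyrinogen oxidase HEM13, at 6.59, 6.72 and 6.63 in dA and 5.98, 6.28 and 5.69 in dI (adjusted p 0.248 and 0.0194). These 3 became 1 without dI replicate 1 or dA replicate 2 and 6 without dI replicate 2. Further genes that passed lower were MOG1, a nuclear import factor (1.45-fold), YHR054C, which lies in a repeated region (1.7-fold), SRD1 (1.63-fold), UTH1 (1.27-fold), APS2, a subunit of the AP-2 clathrin adaptor (1.27-fold), CFD1, of iron-sulfur protein assembly (1.26-fold), EPL1, of a histone acetylase (1.33-fold), ECM22, a regulator of sterol genes (1.35-fold), ROG3, an arrestin-like protein (1.36-fold), and YML053C (1.28-fold). SRT1, a cis-prenyltransferase of dolichol synthesis, and PEX21, a peroxisomal import factor, were under the background in dA and at least 1.08-fold and 1.11-fold lower. The remaining genes, AQY1, CRF1, PRM2, YCR108C, YIL046W-A, YLR406C-A and YOR186W, lay, like DAL80 and PRM1, below the background in all 6 arrays.

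The difference between the proteins was then set against that in wild type. Between WA and WI 22 genes passed higher and 5 lower, 0.496% of all. URA3 was the single gene that passed in both backgrounds in the same direction. AGA1, DAL80, LYS9, MAL32, PRY1 and SAM1 passed in both with opposite signs. The difference between backgrounds itself, dA minus dI less WA minus WI, passed for 87 genes, 28 positive and 59 negative (1.6%). Of the 54 genes 38 were among them a count that uses the same dA and dI arrays as the calls. The sign in wild type was opposite for 44 of the 54 genes and for 57.7% of all genes, and some of these values in wild type were near 0, as for MCH5 at -0.00.

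PUT4 shows the form of this difference. In wild type its log2 signal was 4.95, 5.49 and 5.12 in WA and 4.34, 4.59 and 4.57 in WI. The α-amylase strain had the lower values without HAC1 and the higher values with it, and the difference between backgrounds was -1.96 (adjusted p = 0.000359). Between WA and WI alone PUT4 did not pass (adjusted p = 0.0639). MAL32 differed by -0.77 in the deletion and by 1.01 in wild type (difference -1.77, adjusted p = 0.000773). PRY1 differed by -0.68 in the deletion and by 0.82 in wild type (difference -1.51, adjusted p = 0.000569). SAM1 was the reverse, with 0.38 in the deletion and -0.37 in wild type (difference 0.75, adjusted p = 0.000637). Of 8 genes of lysine synthesis 3 passed this test, LYS9, LYS1 and LYS2, with differences of -0.37, -0.45 and -0.23 between dA and dI and 0.55, 0.41 and 0.29 between WA and WI (adjusted p of the difference 0.000359, 0.03 and 0.0265). LYS1 and LYS2 passed in neither background alone, with adjusted p of 0.122 and 0.184 between dA and dI and 0.31 and 0.17 between WA and WI. MDH2 differed by -0.43 and 0.71 (adjusted p of the difference 0.000723) and EUG1 by 0.47 and -0.26 (0.0356). NCA3, a gene of mitochondrial function chosen after its values were seen, differed by -1.64 and 1.93 (0.00923). EUG1 and NCA3 passed in neither background alone, with adjusted p of 0.0656 and 0.103 between dA and dI and 0.607 and 0.0973 between WA and WI. MDH2 passed between WA and WI only (adjusted p = 0.00303). GRE1 and SIP18 had negative differences in wild type too, at -0.46 and -0.82 (adjusted p = 0.823 for GRE1 and 0.105 for SIP18), and the difference between backgrounds did not pass for either (adjusted p = 0.18 for GRE1 and 0.401 for SIP18). The 2 differences correlated at r = -0.21 over all 5449 genes and at -0.17 over the 54, a description across genes, which are not independent replicates.

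**Figure D5:**
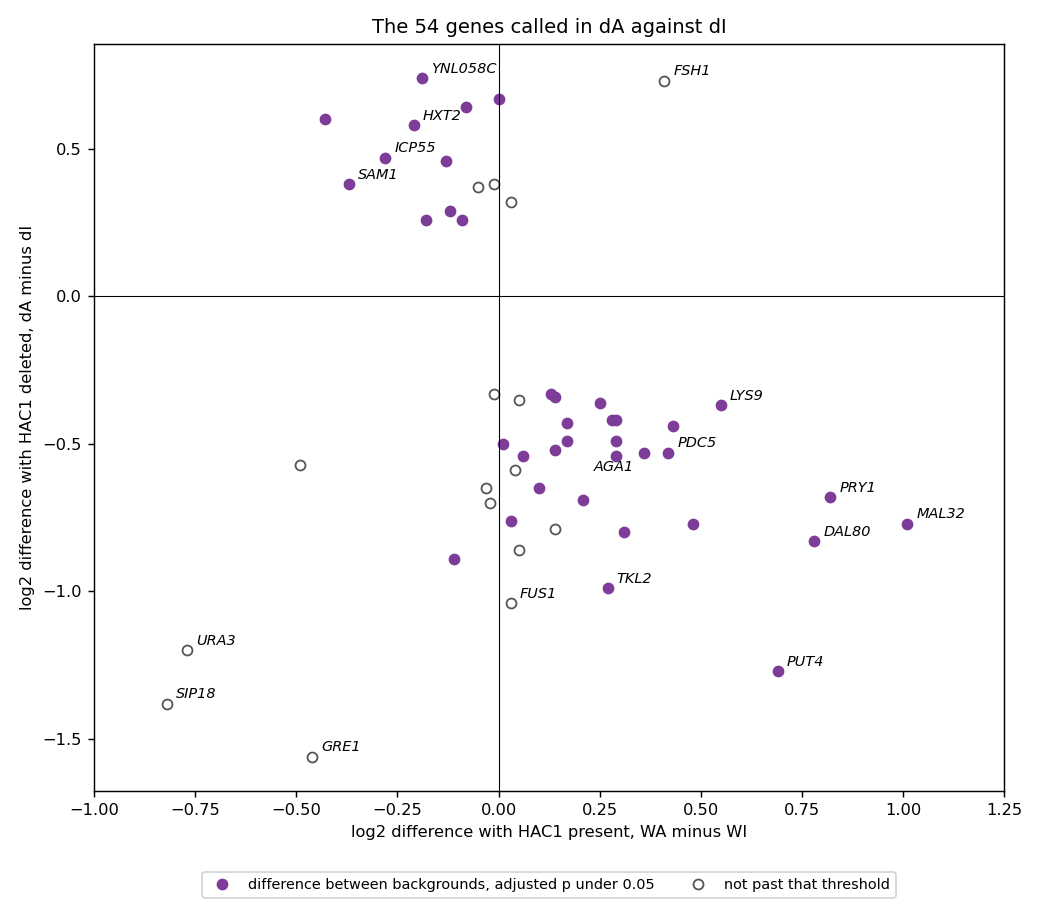
The 54 genes called in dA against dI, with the log2 difference in the deletion background (vertical axis, dA minus dI) against that in wild type (horizontal axis, WA minus WI). Filled points passed the test of the difference between backgrounds (38 genes) and open points did not; PUT4 at -1.27 and 0.69 and MAL32 at -0.77 and 1.01 lie in the lower right, and URA3 at -1.20 and -0.77 in the lower left.

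The empty vector strain dN, whose arrays spread most, is shared by the next values. In dN the signal of PUT4 was 4.0, 4.21 and 4.52 and that of GRE1 was 4.43, 4.75 and 3.36, with 1 array of dN above the background for each gene, and TKL2 was below it in all 3, so no difference from dN is given for these genes. AGA1 differed from dN by -0.44 in dA (adjusted p = 0.00141) and by 0.09 in dI (adjusted p = 0.472). MOG1 differed from it by -0.43 in dA (adjusted p = 0.00206) and by 0.11 in dI (adjusted p = 0.378). For PDC5 and CLN1 the difference from dN passed in dI and not in dA. PDC5 differed by 0.18 in dA (adjusted p = 0.263) and by 0.70 in dI (adjusted p = 0.000205). CLN1 differed by -0.11 in dA (adjusted p = 0.516) and by 0.43 in dI (adjusted p = 0.00718). Of the 39 genes lower in dA than in dI, dim genes included, dI was above dN for 33 and dA below dN for 27, by sign alone. RGI1 was above dN in both strains, by 1.30 in dA (adjusted p = 5.08e-06) and by 0.67 in dI (adjusted p = 0.0019).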

How the data were processed

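RNA of 18 bioreactor cultures was measured on Affymetrix Yeast Genome 2.0 arrays, and arrays were grouped by their titles, 3 for each of 6 strains. The authors deposited log2 values, made with RMA background correction of the perfect-match probes, after which arrays were scaled to each other by qspline and probes summarised by median polish. These log2 values were used as deposited, so a change in total mRNA per cell is outside what they show. Aligned sequence or a genome build plays no part in them. Of 10928 probe sets 5498 belong to S. cerevisiae, and 47 genes had more than 1 (the brightest was kept), which left 5449 genes. The array background is the 95th percentile of the other 5430 probe sets, 4.38 to 4.63 over the arrays, with 4892 to 4971 genes brighter than it on each. Where a strain had no array above it, the fold is a lower bound from the higher of its signal and the background.

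Differences came from limma 3.58.1 (R 4.3.3), with 1 mean per strain over the 18 arrays, moderated variances and Benjamini-Hochberg adjustment over all genes. This leaves 12 residual degrees of freedom, and the fit of dA and dI alone leaves 4. Where 2 adjusted p stand together, the first is of the 18 arrays and the second of dA and dI alone. The script was tested on simulated data. Neither of these fits paired arrays by the replicate number in the titles, and a block for the number was an alternative. The residuals of same-numbered dA and dI arrays correlated at 0.202, 0.101 and 0.407. Those of arrays with unlike numbers correlated at -0.324 to 0.161, so the pairing by number is uncertain. A dN array without a number was left out of the block fit.

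The comparison, gene lists and rule for named genes were chosen with earlier results of these data known. Lists are described by counts and medians, with no test of a list. The rule named up to 15 highest and 15 lowest called genes whose arrays do not overlap and whose higher strain is above background, HAC1, URA3, the ER genes of the study, and up to 5 genes of each list with the smallest adjusted p. The other called genes and CAR1, CTT1, DSE4, EGT2, FAR1, GDH1, HSP12, HXK1, HXT4, HXT5, HXT7, NCA3, NQM1, SNO1, SNZ1, SPS19, THI3, THI7, THI13, THI73, THI80 and TSA2 were named after their values were seen. Promoter sequences were not used here.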

Additional observations from a re-analysis of the deposited data

Results flagged for a closer look

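The effect of α-amylase against insulin precursor differed between the deletion and wild type, by the test of the difference itself, for 20 of the genes named among the highest and lowest. The values are log2 differences, dA minus dI less WA minus WI, from limma with Benjamini-Hochberg adjusted p under 0.05. They were -1.96 for PUT4, -1.77 for MAL32, -1.51 for PRY1, -1.26 for TKL2, -0.94 for PDC5, -0.90 for PCL2, -0.89 for AGA1, -0.83 for MOG1, -0.80 for YHR054C and -0.60 for CLN1. In the other direction they were 0.93 for YNL058C, 0.78 for HXT2, 0.75 for ICP55, 0.75 for SAM1, 0.72 for RGI1, 0.67 for MCH5, 0.58 for PAU4, 0.45 for SLM5, 0.41 for SAM50 and 0.35 for YNL040W. The calls use the arrays that also chose these genes. With the replicate number as a block over 17 arrays, HXT2, MCH5 and RGI1 lost the call (adjusted p = 0.0659, 0.0729 and 0.0505).

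Outside the tested genes, 7 probe sets above the background differed between dA and dI in the fit of all probe sets. Of these 3 are control probe sets named for URA3, with differences of -1.20, -1.23 and -1.03 (adjusted p 7.4e-06, 8.05e-06 and 1.29e-05). They read the same gene as the URA3 probe set of the report, which differed by -1.20. Another 3 are reporter probe sets that share a target for which the tables used here name no gene, with differences of -0.63, -1.44 and -0.96 (adjusted p 0.000753, 2.71e-05 and 0.000162). The second of them gave 7.92, 8.14 and 8.21 in dA and 9.50, 9.53 and 9.56 in dI, and in wild type 9.78, 9.44 and 9.36 in WA and 10.04, 10.42 and 10.45 in WI. The last differed by -0.51 (adjusted p = 0.0169).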

How the results depend on the processing

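The number of genes called between dA and dI was 54. It became 473 in a fit of dA and dI alone, 375 without dN replicate 3, 379 without the dN arrays, 667 with a replicate block in dA and dI alone and 1440 with array quality weights, and 17 at an adjusted p under 0.01 and 25 at 1.5-fold or more. It was 17 to 58 with 1 of the 6 arrays left out. In the fit of dA and dI alone it was 171, 800 and 197 without dI replicates 1, 2 and 3 and 223, 191 and 216 without dA replicates 1, 2 and 3. Leaving out arrays in that fit was added after seeing the data, while the fit itself was planned. The number called for the difference between backgrounds was 87. It became 327 in a fit of dA, dI, WA and WI, 392 with a replicate block there, 361 without dN replicate 3, 375 without the dN arrays and 890 with array quality weights, 35 at an adjusted p under 0.01, and 49 to 74 with 1 array left out. The other alternatives stayed within 1.5 times both counts, the replicate block over 17 arrays among them, at 55 and 88. Among the named genes no called difference changed its direction under any alternative. Over the 54 genes and the alternatives that keep all 6 arrays, 548 values kept the call and 35 lost it. With 1 array out 141 kept it and 183 lost it. Quantile normalization and median centring moved the median of all genes by no more than 0.01, and the medians of the lists described kept their sign under both. With the replicate block over 17 arrays 8 of the 54 genes lost the call, all named in the report, and 14 of the 87 lost that for the difference between backgrounds. With 3 arrays per strain, and 10 of the calls below the background, small differences and dim genes are not resolved.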
